A study of Homo sapiens with 3 samples.

Results

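The genes described here are 10 readouts and ligands of BMP and TGF-beta signalling: ID1, ID2, ID3, ID4, SMAD6, SMAD7, SKIL, BAMBI, TGFB1 and TGFB2. They were chosen by symbol, with earlier results of these data known, and 10 of 10 were found among the 16793 symbols measured. H446 is an established human small cell lung cancer line, and its RNA was sequenced after 48 h with vehicle, with 5 µM 3-bromoascochlorin (BAS) or with 10 µM BAS. BAS is a brominated derivative of ascochlorin, a fungal metabolite, and the title of the study names the MAPK pathway. Each of the 3 groups is a single library, so replicate spread is unknown and nothing below is tested. All groups were the same line in serum-containing medium, and nothing but the treatment separates their labels. The column headings of the treated libraries carry codes in place of the compound and dose, so each dose value rests on the sample labels.

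BMP and TGF-beta ligands bind paired type I and type II receptor kinases, which phosphorylate SMAD proteins. SMAD1, SMAD5 and SMAD9 carry BMP signals and SMAD2 and SMAD3 carry TGF-beta and activin signals, each with the shared partner SMAD4, into the nucleus. The ID genes are classical direct targets of BMP signalling and encode proteins that hold basic helix-loop-helix factors away from DNA. SMAD6 and SMAD7 are the inhibitory SMADs, SKIL (SnoN) is a SMAD corepressor and BAMBI is a decoy receptor without a kinase domain. All of them are also feedback genes that the pathway itself switches on. The label calls the genes ID and SMAD readouts, but TGFB1 and TGFB2 are ligands. ID genes are also controlled by serum, MYC and other signals.

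The values are FPKM, read fragments scaled for transcript length and library size, and so can be compared between genes. Values of a gene are always given in the order vehicle, 5 µM, 10 µM. Differences were taken on the log2(FPKM + 1) scale among the 11512 genes that averaged 1 FPKM or more across libraries, and this scale understates the differences of low genes. A fold, by contrast, is here the FPKM of one library divided by that of another. Of the 10 genes, 8 passed this filter and BAMBI and TGFB2 did not. The filter uses the mean of all libraries, so a gene under 1 FPKM with vehicle can pass only through its treated libraries. The pathway genes CTGF, HEY1, BMP6 and ACVRL1, counted below, passed in this way. The libraries summed to 487923, 507342 and 492102 FPKM, and the read depth is unknown because no counts are used here. The neuroendocrine markers fixed for the line were all present, 8 of 8 past the filter, with a summed level of 495.24 to 588.94 FPKM. They differed with BAS in both directions. At 10 µM CHGA was 3.36-fold and UCHL1 2.15-fold over vehicle, both called 2-fold, as were 1.95% of all genes in either direction. POU4F1 was at 0.65 times vehicle. Of the 8 markers, 5 were above vehicle and 3 below, and 56.5% of all genes were above. These marker differences lie beside those of the pathway genes in the same libraries, and their part in them was not tested. Of 9 markers of blood, vessel, liver and lung cells, 7 were listed with a summed level of 1.75 to 2.26 FPKM, and PTPRC (1.03, 0.92 and 1.09 FPKM) was the only one past the filter. In bulk RNA, fewer cells that express a gene and less of its RNA per cell cannot be told apart.

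The promoter stretches of 7 genes are shown, those whose levels were ordered by dose: ID2, ID3, SMAD6, SMAD7, SKIL and TGFB1 were higher at each step and ID1 lower, so that their start regions can be compared. Each is the 150 bases just before the RefSeq transcript start on GRCh38.p14, written from the 5′ end on the gene's own strand; the expression files use another build, hg19. ID1 lies at chr20:31605139-31605288 (plus strand), ID2 at chr2:8681906-8682055 (plus strand), ID3 at chr1:23559502-23559651 (minus strand), SMAD6 at chr15:66702086-66702235 (plus strand), SMAD7 at chr18:48950966-48951115 (minus strand, the furthest upstream of 3 listed starts), SKIL at chr3:170357565-170357714 (plus strand) and TGFB1 at chr19:41353923-41354072 (minus strand). Capitals mark 3 motifs, named next, on either strand: CAGAC, which reads as GTCTG where it lies on the other strand, the motif GTCTAGAC, and the motif TGACGTCA. The motif GGCGCC was also searched.
ID1: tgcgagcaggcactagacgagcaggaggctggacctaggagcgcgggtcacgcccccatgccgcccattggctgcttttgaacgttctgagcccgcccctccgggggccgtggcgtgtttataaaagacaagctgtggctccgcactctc
ID2: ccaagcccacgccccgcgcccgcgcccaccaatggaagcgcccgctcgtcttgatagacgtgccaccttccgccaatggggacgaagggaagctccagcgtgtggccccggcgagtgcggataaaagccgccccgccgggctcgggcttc
ID3: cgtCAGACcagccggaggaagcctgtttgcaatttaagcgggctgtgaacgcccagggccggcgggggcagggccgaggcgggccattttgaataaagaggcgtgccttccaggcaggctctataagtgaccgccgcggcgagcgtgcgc
SMAD6: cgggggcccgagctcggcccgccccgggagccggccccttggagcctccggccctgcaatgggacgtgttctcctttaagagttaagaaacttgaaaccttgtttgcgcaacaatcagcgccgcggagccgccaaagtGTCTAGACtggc
SMAD7: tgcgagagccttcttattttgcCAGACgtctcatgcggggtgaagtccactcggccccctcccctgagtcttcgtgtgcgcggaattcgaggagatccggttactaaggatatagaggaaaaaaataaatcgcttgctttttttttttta
SKIL: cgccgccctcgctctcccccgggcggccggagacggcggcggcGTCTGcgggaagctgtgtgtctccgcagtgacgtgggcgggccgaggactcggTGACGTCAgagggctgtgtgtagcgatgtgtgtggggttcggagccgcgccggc
TGFB1: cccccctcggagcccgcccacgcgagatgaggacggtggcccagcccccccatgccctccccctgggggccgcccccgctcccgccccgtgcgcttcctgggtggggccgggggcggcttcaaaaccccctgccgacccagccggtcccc

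All 10 genes had an entry in the promoter table, and both strands were searched from 250 bases before to 50 bases after the start, for SMAD7 around the start shown. GTCTAGAC, the palindromic SMAD binding element, is a strong site for SMAD3 and SMAD4. It is present in 0.202% of 35116 promoters of that length and, among the 10 genes, in SMAD6, where it begins 12 bases before the start. CAGAC, the short SMAD box, is common, at 45.3% of promoters, and was found in 6 of the 10 genes: ID3, ID4, SMAD7, SKIL, BAMBI and TGFB2. GGCGCC, the GC-rich element bound by BMP SMADs, is in 19.2% of promoters and in SKIL and BAMBI here. TGACGTCA, the cyclic AMP response element, is in 1.85% of promoters and in SKIL, 54 bases before its start. ID1, lower with BAS, and ID2 and TGFB1, higher with BAS, held none of these motifs in this window. The motifs do not overlap one another in the stretches shown, and a match is a description of letters, not of binding.

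ID1, ID3 and ID2 were the most abundant of the 10 genes, and the ID family did not move together. ID1 was at 497.84, 475.80 and 370.84 FPKM. It was the 132nd highest of all 16793 symbols with vehicle and the 152nd at 10 µM. The vehicle and 5 µM libraries were close for ID1, and the 10 µM library was the low one, at 0.74 times vehicle. Its log2 differences from vehicle were −0.07 at 5 µM and −0.42 at 10 µM, and 7.08% of all genes had a lower difference at 10 µM. Between the doses the difference was −0.36, with 2.02% of genes lower.

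ID3, which often accompanies ID1 as a BMP target, was at 217.78, 239.19 and 255.88 FPKM. It was thus above vehicle where ID1 was below, by 0.13 and 0.23 on the log2 scale. ID2, a partner of the E proteins that also binds the retinoblastoma protein, was at 66.60, 84.83 and 89.81 FPKM. Both treated libraries were above vehicle for ID2, by 1.27-fold and 1.35-fold, with most of the difference present at 5 µM. ID4 was the lowest of the family, at 8.94, 11.05 and 9.52 FPKM. Its 5 µM library was the high one and its 10 µM library lay 1.06-fold over vehicle, a log2 difference of 0.08. At 10 µM, 12.4% of all genes had a higher difference than ID2, 27.0% than ID3 and 45.4% than ID4. The bars of the 10 genes by library show the order of ID1 opposite to those of ID2 and ID3.

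**Figure D1:**
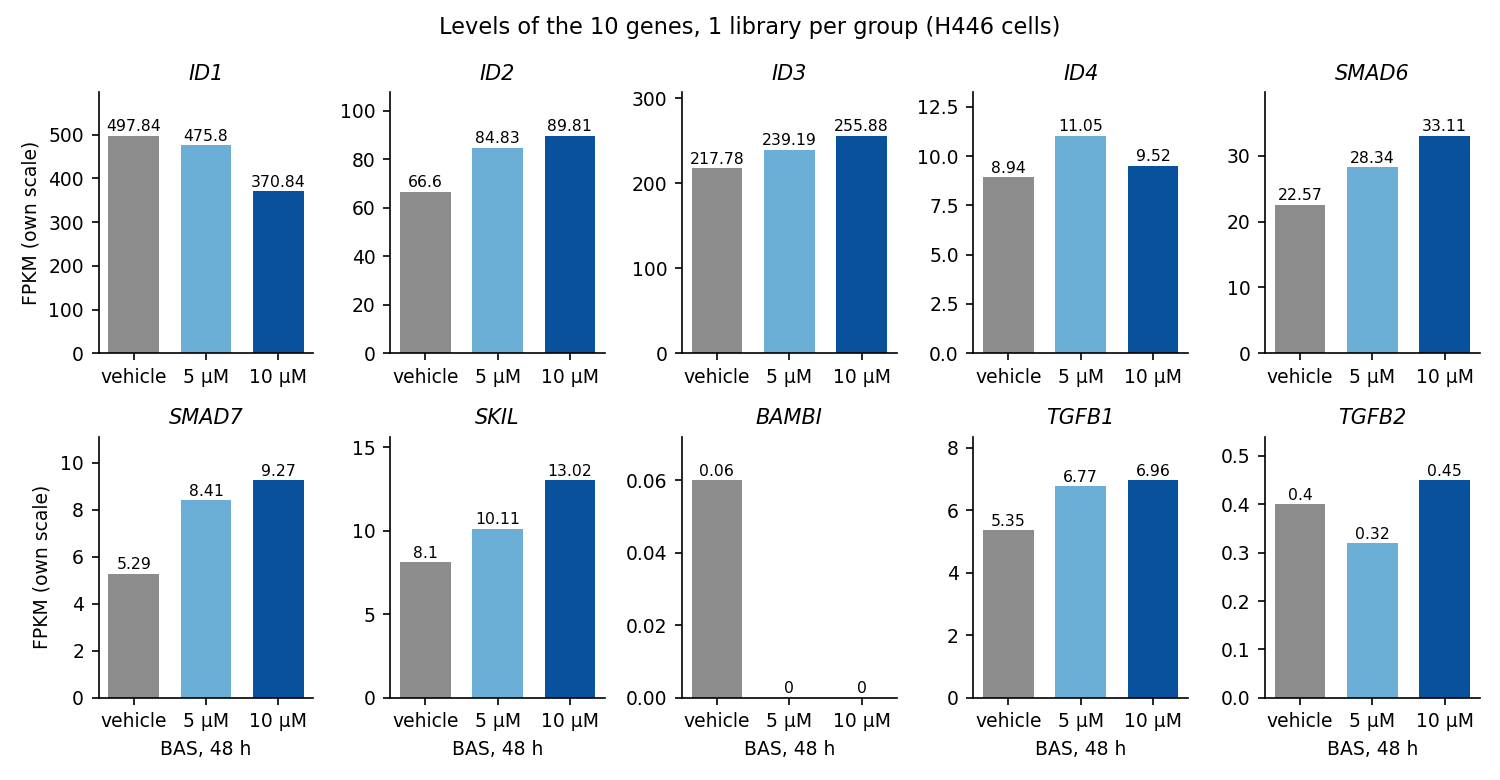
Level of each of the 10 genes in FPKM (vertical axis, from 0, a separate scale for each gene) in the vehicle, 5 µM and 10 µM libraries, 1 bar per library, with no error because there is 1 library per group. ID1 is lowest at 10 µM (370.84 FPKM), while ID2, ID3, SMAD6, SMAD7, SKIL and TGFB1 are highest there, and BAMBI is listed at 0 in both treated libraries.

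Ratios between genes of the same library do not change when each library is multiplied by a single factor. Quantile normalization is not such a scaling. With it the log2 difference at 10 µM was −0.31 in place of −0.42 for ID1 and 0.24 in place of 0.23 for ID3. The ratios below are as deposited. ID1 to ID3 had a ratio of 2.29, 1.99 and 1.45 in the 3 libraries. The ratio of ID1 to ID2 was 7.48, 5.61 and 4.13. ID3 to ID2 moved less, at 3.27, 2.82 and 2.85. The 4 ID genes summed to 791.16, 810.87 and 726.05 FPKM, and ID1 made up 62.9%, 58.7% and 51.1% of that sum. ID3 made up 27.5%, 29.5% and 35.2%, ID2 8.42%, 10.5% and 12.4%, and ID4 1.13%, 1.36% and 1.31%. The family therefore kept its order of levels (ID1, ID3, ID2, ID4) in all 3 libraries with a smaller part from ID1 at each dose.

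**Figure D2:**
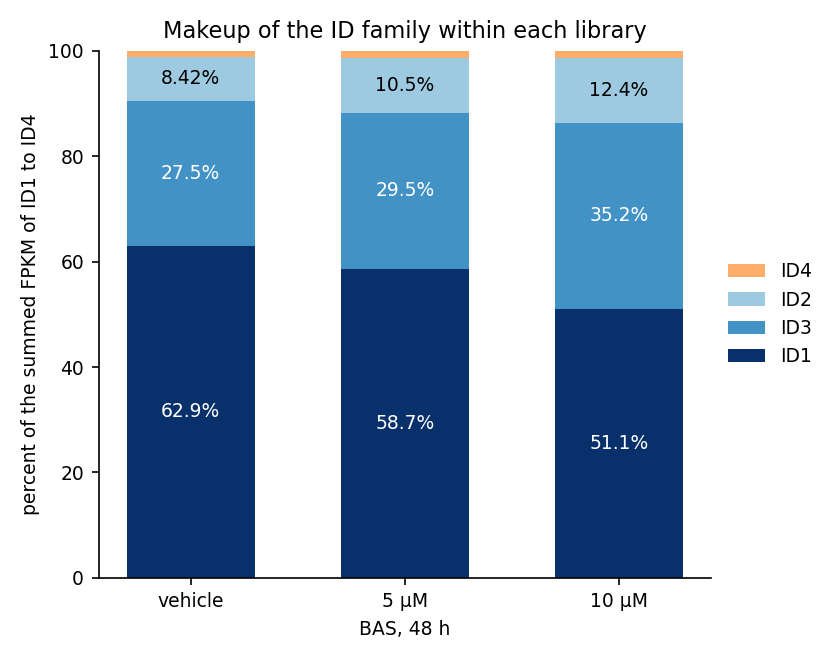
Makeup of the ID family within each library: each bar splits the summed FPKM of ID1 to ID4 (vertical axis, percent) in the vehicle, 5 µM and 10 µM library. The ID1 part is 62.9% with vehicle and 51.1% at 10 µM, and the ID3 part 27.5% and 35.2%.

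Both inhibitory SMADs and SKIL were above vehicle at each dose and higher at 10 µM than at 5 µM. SMAD7, which recruits ubiquitin ligases to TGF-beta and BMP receptors, was at 5.29, 8.41 and 9.27 FPKM. The vehicle library was the low one, and most of the difference was present at 5 µM (1.59-fold, against 1.75-fold at 10 µM). SMAD7 had the highest difference of the 10 genes at both doses, 0.58 and 0.71 on the log2 scale, where 3.09% and 3.73% of all genes were higher. SMAD6, which acts mainly on BMP signalling, was at 22.57, 28.34 and 33.11 FPKM. It stepped up at each dose, by 1.26-fold and 1.47-fold over vehicle, with log2 differences of 0.32 and 0.53. SKIL, which binds SMAD complexes and silences their targets, was at 8.10, 10.11 and 13.02 FPKM. Its step from 5 to 10 µM was 1.29-fold, a log2 difference of 0.34 that 3.34% of all genes passed, and at 10 µM it was 1.61-fold over vehicle. SMAD6 stayed the more abundant inhibitory SMAD, at 4.27, 3.37 and 3.57 times SMAD7.

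The pseudoreceptor and the ligands among the 10 genes were low. BAMBI was barely detected with vehicle, at 0.06 FPKM, and both treated libraries list it at 0, so no fold is given. TGFB2 was at 0.40, 0.32 and 0.45 FPKM, under 1 FPKM in each library. Of the 50-base sequences of TGFB2, 26.4% are also in TGFB2-OT1, an overlapping RNA on the same strand, so the reads of both could be mixed. TGFB1, the most widely expressed TGF-beta, was at 5.35, 6.77 and 6.96 FPKM. Both treated libraries were above vehicle for TGFB1, by 1.27-fold and 1.30-fold, and they were close to each other. With quantile normalization its difference between the doses was −0.02 in place of 0.03. HNRNPUL1 exons on the other strand cover 6.64% of TGFB1 exon bases and ID2-AS1 covers 1.72% of those of ID2, and reads of such pairs cannot be told apart without strand. Of their own 50-base sequences, SKIL and ID2 share under 1% with other genes and the other 7 share none.

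The differences of the 8 members past the filter are set here beside those of all genes. No member that passed the filter differed 2-fold (an absolute log2 difference of at least 1) in any comparison: 0 of 8 at 5 µM, where 0.756% of all genes did, 0 of 8 at 10 µM (1.95%) and 0 of 8 between the doses (0.0869%). With a limit of 1.5-fold on the log2(FPKM + 1) scale, 0 of 8 were higher at 5 µM, where 3.01% of all genes were higher and 1.62% lower. At 10 µM the 2 members SMAD7 and SKIL were 1.5-fold higher, where 6.05% of all genes were, and 0 were lower (3.47% of all genes). The limit of 1.5-fold is 0.585 on the log2 scale. By FPKM ratio SMAD7 was 1.59-fold over vehicle at 5 µM. On the log2 scale it was just under the limit, at 0.581, and past it with a pseudocount of 0.1, at 0.659. SKIL at 10 µM was under it with median-ratio scaling, at 0.569. Above vehicle by any amount were 7 of 8 members at 5 µM (53.2% of all genes) and the same 7 at 10 µM (56.5%), ID1 being the other one. The median difference of the 8 was 0.29 at 5 µM and 0.38 at 10 µM, where the median of all genes was 0.02 and 0.05 and their upper quartile 0.18 and 0.25. Both dose comparisons use the same vehicle library. Levels were ordered by dose, higher at each step, for 6 of 8 members (ID2, ID3, SMAD6, SMAD7, SKIL and TGFB1) and for 32.9% of all genes. They were lower at each step for ID1 and for 20.8% of all genes. Between the doses, the median of the 8 was 0.09 and that of all genes 0.04, and 10 genes were called in all, 5 higher and 5 lower (2 and 7 with median-ratio scaling).

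**Figure D3:**
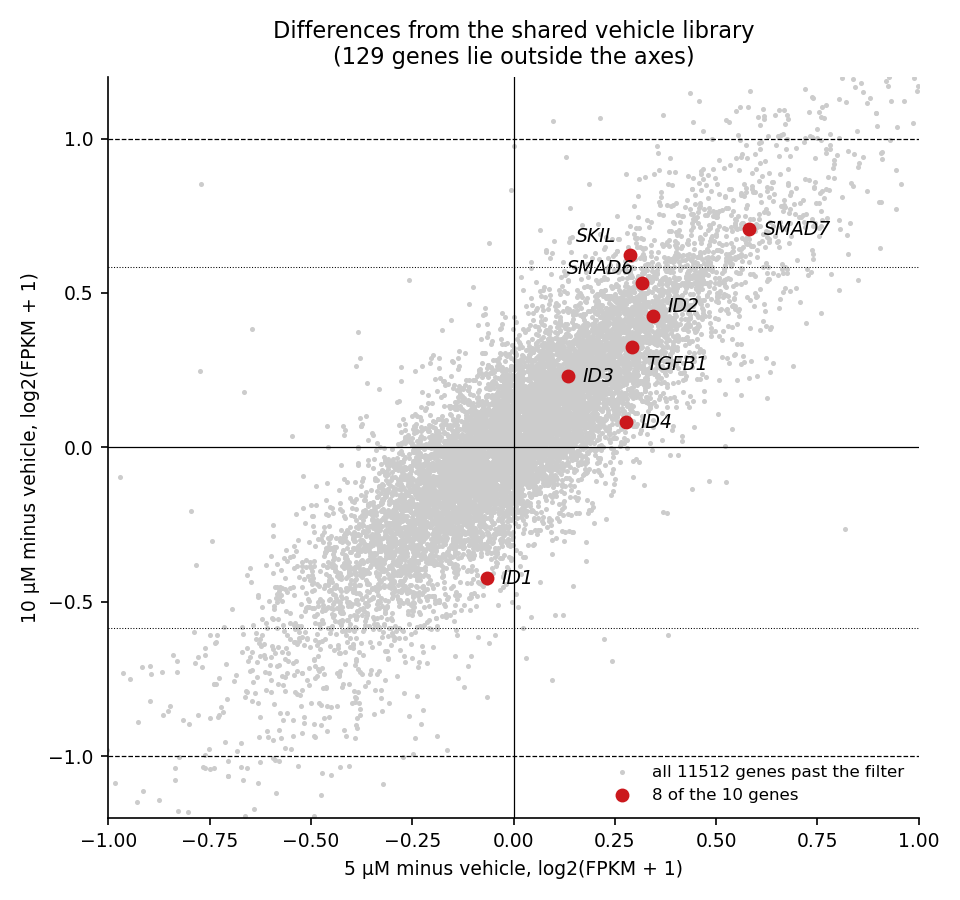
Difference from vehicle in log2(FPKM + 1) at 5 µM (horizontal axis) and 10 µM (vertical axis); grey points are the 11512 genes past the filter, of which 129 lie outside the axes, and red points the 8 members. Dotted and dashed lines mark 1.5-fold and 2-fold at 10 µM; SMAD7 and SKIL lie above the upper dotted line, ID1 lies below 0 on both axes, and the axes share the vehicle library.

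The genes whose pair of differences from vehicle lay nearest those of SMAD7 were RUSC2, TPM1, PPDPF, NEDD9 and GDPD1, at distances of 0.004 to 0.016 on the log2 scale over the 3 libraries. Nearest SKIL were RHOBTB3, AHNAK2, SEMA3C, NADSYN1 and IFI6, at distances of 0.011 to 0.024. With 3 libraries such neighbours are many: 108 genes lay within 0.1 of SMAD7 and 134 within 0.1 of SKIL.

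The wider pathway was described with 14 lists, from ligands to targets. The lists were written with earlier results of these data known, so their order is a description only. TGF-beta response genes stood highest of the 14 by median. Of the 23 genes used, 22 were measured and 16 passed the filter. Of the 16, 15 were above vehicle at 5 µM (13 with total scaling), where 53.2% of all genes were. At 10 µM 13 were above (56.5% of all genes), and the medians were 0.34 and 0.62. At 10 µM, 9 of the 16 were 1.5-fold higher (6.05% of all genes) and 0 were 1.5-fold lower (3.47% of all genes). With the members SMAD7 and SKIL left out, 7 of 14 were 1.5-fold higher, with a median of 0.57, and 6 of 14 with median-ratio or quantile scaling. These counts include CTGF, which was under 1 FPKM with vehicle and passed the filter only through its treated libraries. CDKN2B (p15), a cell cycle inhibitor, was at 8.97, 14.70 and 19.04 FPKM. At 10 µM, where 1.95% of all genes were called 2-fold, it was the only one called, at a log2(FPKM + 1) difference of 1.01. That was 0.952 with median-ratio scaling, 0.997 with total scaling and 0.953 with quantile normalization, all under the limit. TAGLN, an actin-binding protein gene, was at 1.51, 2.22 and 3.68 FPKM, and CTGF, a matrix signalling protein gene, at 0.94, 1.93 and 2.44 FPKM. At 10 µM TAGLN was 2.44-fold and CTGF 2.60-fold over vehicle by FPKM ratio, above the 2.12-fold of CDKN2B. Their log2(FPKM + 1) differences, 0.90 and 0.83, were under the limit. KLF10, an early TGF-beta induced transcription factor, was at 20.56, 28.42 and 36.27 FPKM, 1.76-fold over vehicle at 10 µM. PMEPA1 (9.06, 9.35 and 8.91 FPKM), a SMAD-induced inhibitor of TGF-beta signalling, and CDH2 (8.39, 7.91 and 7.97 FPKM) stayed close to vehicle, and TGFBI was under 1 FPKM in each library. ACTA2, at 18.98, 22.68 and 17.12 FPKM, was above vehicle at 5 µM and the furthest below it of the list at 10 µM. Several of these genes, CTGF and CDKN2B among them, also answer other signals such as serum, stress or YAP.

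BMP response genes had lower medians than TGF-beta response genes. Members included, 12 of 15 past the filter were above vehicle at each dose, with medians of 0.25 and 0.23. At 10 µM that lay beside 13 of 16 TGF-beta response genes. Beside the members, 9 passed the filter, with 7 above vehicle at each dose and medians of 0.16 and 0.18. Of all genes, 53.2% were above vehicle at 5 µM and 56.5% at 10 µM. At 10 µM 5 to 6 of the 9 were above under the 3 scalings tried. MSX1, a homeobox target of BMP, was at 1.51, 2.88 and 4.05 FPKM. At 10 µM, where 1.95% of all genes were called 2-fold, it was the only one of the 9 called, at a log2 difference of 1.01. That was 0.965 with median-ratio scaling and 0.935 with quantile normalization, both under the limit. DLX2 was at 5.83, 7.41 and 9.92 FPKM. ATOH8, a helix-loop-helix target of BMP signalling, was at 94.21, 69.18 and 63.41 FPKM, below vehicle at both doses like ID1, although its 5 µM library was already low where that of ID1 was not. SMAD9, itself a BMP-induced gene, was at 9.34, 10.26 and 10.71 FPKM.

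Among the ligands, TGFB3 was the most abundant TGF-beta and went the other way from TGFB1. TGFB3 was at 61.59, 49.03 and 40.36 FPKM, 0.66 times vehicle at 10 µM, so that its ratio to TGFB1 was 11.5, 7.24 and 5.80. BMP4, the leading BMP ligand, was at 23.95, 23.41 and 28.02 FPKM. BMP6 was at 0.49, 1.21 and 1.62 FPKM, 3.31-fold over vehicle from a level under 1 FPKM. MSTN (myostatin) was at 14.33, 14.81 and 13.72 FPKM, GDF11 at 9.13, 7.28 and 7.98 FPKM and BMP8B at 3.56, 3.23 and 3.57 FPKM. GDF1 (1.14, 1.28 and 1.64 FPKM) is uncertain, because 100% of its 50-base sequences are also in CERS1. INHA, INHBA, INHBB, BMP2, BMP5 and BMP7 were each under 0.5 FPKM in all libraries.

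Receptors differed by member. ACVR1 (ALK2), a type I receptor for BMPs, was at 9.79, 17.07 and 18.56 FPKM, 1.90-fold over vehicle at 10 µM, and ACVRL1 (ALK1) at 0.98, 2.21 and 1.83 FPKM. BMPR1A (ALK3) was at 18.15, 15.01 and 13.64 FPKM. The ratio of BMPR1A to ACVR1 was 1.85 with vehicle and 0.88 and 0.73 with BAS, so their order turned. BMPR1A shares 12.4% of its 50-base sequences with other genes. The TGF-beta type I receptor TGFBR1 was at 8.28, 7.56 and 8.17 FPKM and the activin receptor ACVR1B at 13.95, 15.49 and 15.35 FPKM. All 3 type II receptors past the filter were below vehicle at 5 µM, where 53.2% of all genes were above. TGFBR2 was at 14.29, 10.36 and 9.58 FPKM, BMPR2 at 5.74, 4.66 and 4.37 FPKM and ACVR2A at 2.43, 2.36 and 2.48 FPKM. Of the co-receptors, ENG (endoglin) was at 1.86, 2.24 and 3.32 FPKM, RGMB at 7.09, 7.06 and 6.13 FPKM and TGFBR3 at 2.69, 2.22 and 2.51 FPKM.

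Genes that hold or release latent TGF-beta were above vehicle, 7 of 7 past the filter at each dose as deposited, with medians of 0.30 and 0.39 (6 of 7 at 5 µM with rescaling to a common total or quantile normalization). Of all genes, 53.2% were above vehicle at 5 µM and 56.5% at 10 µM. LTBP4 was at 15.60, 25.68 and 28.46 FPKM, ITGB5, an integrin subunit, at 12.55, 19.00 and 22.88 FPKM, LTBP1 at 1.08, 1.69 and 2.19 FPKM and LTBP3 at 26.43, 31.83 and 34.99 FPKM. Of 6 extracellular antagonists, 3 were above and 3 below vehicle at 10 µM as deposited, and 2 were above with each of the 3 scalings. The activin antagonists FST (1.39, 2.29 and 2.83 FPKM) and FSTL3 (5.18, 6.91 and 8.33 FPKM) were above, VWC2 (7.65, 6.02 and 5.84 FPKM) and SOSTDC1 (10.62, 10.51 and 8.61 FPKM) were below, and the BMP antagonist NOG was at 4.22, 4.85 and 4.24 FPKM. The log2 difference of NOG at 10 µM was 0.0055 as deposited and below 0 with each scaling.

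The signal-carrying SMADs differed less from vehicle than SMAD6 and SMAD7 at each dose, the furthest being SMAD5 at 5 µM (0.85 times vehicle). SMAD1 was at 12.51, 11.91 and 13.63 FPKM, SMAD5 at 17.58, 14.94 and 17.99 FPKM, SMAD2 at 5.94, 5.74 and 5.71 FPKM, SMAD3 at 4.16, 3.77 and 4.10 FPKM and SMAD4 at 8.75, 9.02 and 9.35 FPKM. Of the 6, SMAD9 included, 0 were 1.5-fold higher or lower at either dose, with medians of −0.05 and 0.06. On the log2 scale SMAD6 passed that limit at neither dose and SMAD7 only at 10 µM. At 10 µM 6.05% of all genes were 1.5-fold higher and 3.47% lower. Among 12 corepressors and partners, 4 were above and 8 below vehicle at 10 µM, where 56.5% of all genes were above. SKI, the relative of SKIL, was at 53.98, 45.89 and 43.57 FPKM, so the ratio of SKI to SKIL was 6.66, 4.54 and 3.35. TGIF1 was at 14.48, 19.21 and 21.11 FPKM, TGIF2 at 9.35, 10.88 and 12.40 FPKM, and ZNF423, a cofactor of BMP SMADs, at 7.02, 5.47 and 3.99 FPKM. Of 11 ubiquitin ligases, phosphatases and anchors, 3 were above and 8 below vehicle at 10 µM, with the ligase genes SMURF2 at 9.78, 12.46 and 16.20 FPKM, SMURF1 at 4.87, 4.87 and 4.51 FPKM, WWP1 at 3.79, 3.02 and 2.64 FPKM and NEDD4L at 2.27, 1.95 and 1.79 FPKM. USP15, a deubiquitinase of this pathway, was at 9.43, 10.41 and 10.90 FPKM.

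**Figure D4:**
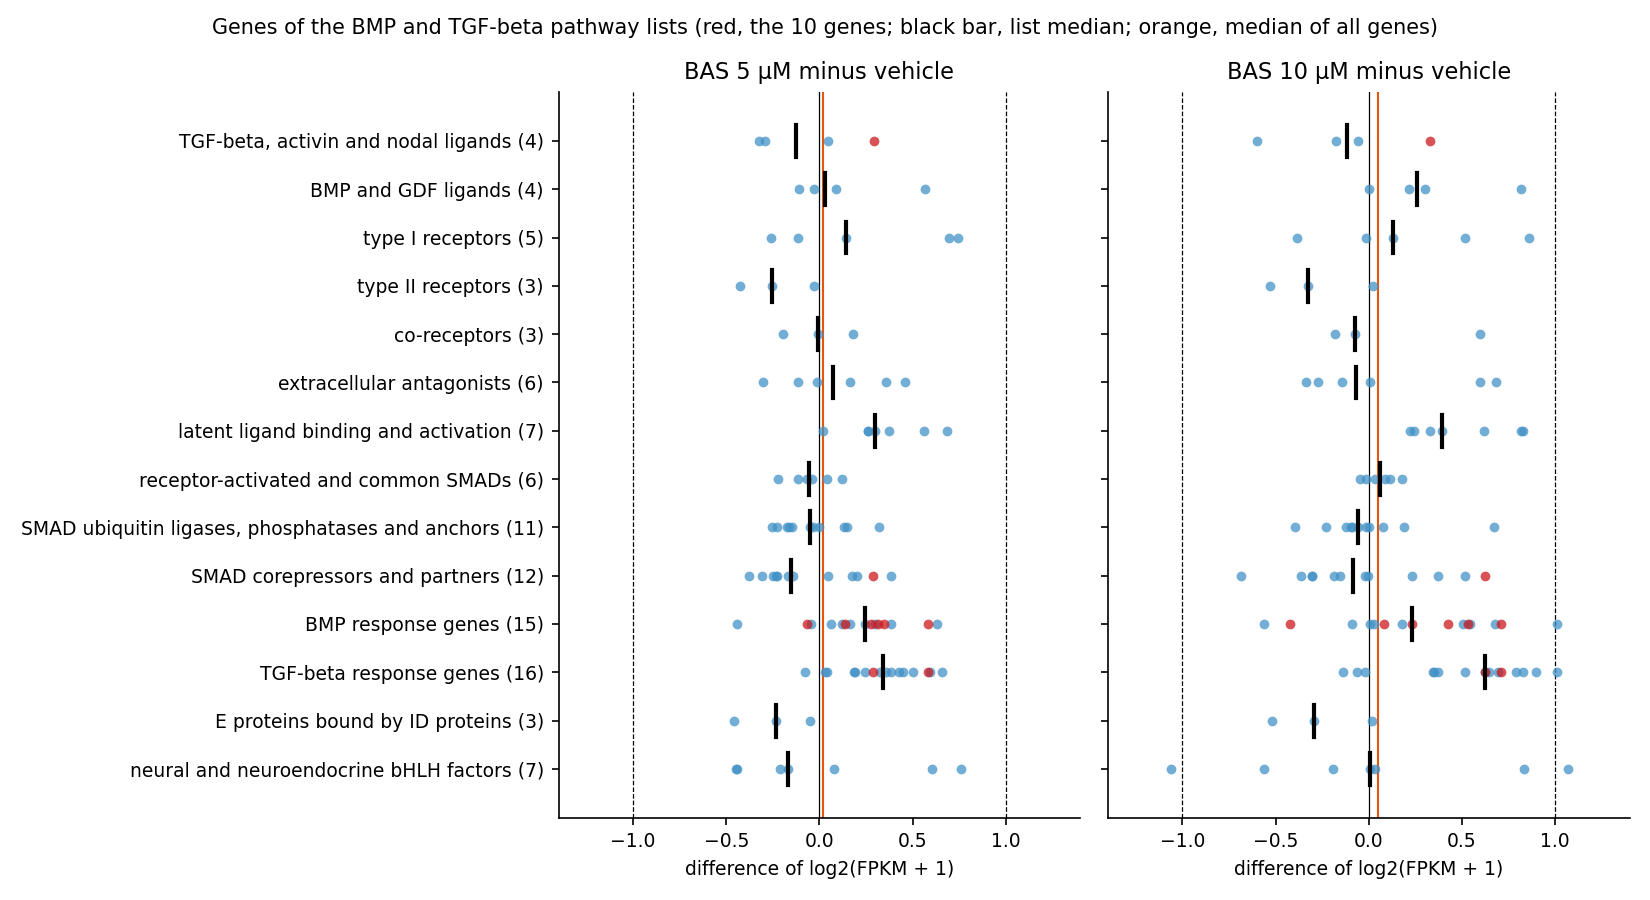
Difference from vehicle in log2(FPKM + 1) at 5 µM (left) and 10 µM (right) for the genes of 14 pathway lists past the filter; each point is a gene, red points are members, black bars list medians, the orange line the median of all genes (0.02 and 0.05) and dashed lines 2-fold. The TGF-beta response list has the highest median at both doses (0.34 and 0.62), and most of its points at 10 µM lie to the right of 0. The lists were chosen with earlier results of these data known.

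The E proteins, the main binding partners of ID proteins, were led by TCF3 (E2A) at 121.23, 116.86 and 122.75 FPKM. TCF4 was at 12.03, 8.47 and 8.09 FPKM, 0.67 times vehicle at 10 µM, and TCF12 at 17.78, 15.00 and 14.33 FPKM. Of 7 neural helix-loop-helix genes past the filter, HES6 (32.18, 49.37 and 68.70 FPKM) was called 2-fold higher and BHLHE22 (5.38, 3.67 and 2.06 FPKM) 2-fold lower at 10 µM. Of all genes, 1.95% were called 2-fold in either direction at that dose. HES1, a repressor downstream of Notch, was at 10.74, 18.90 and 19.88 FPKM.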

How the data were processed

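RNA of H446 cells was sequenced as single-end reads of 50 bases, 1 library for each of 3 groups, per the labels' protocols. Trim Galore, BWA, Bowtie2, Cufflinks and Cuffdiff, with hg19, are the tools and build listed in the submitters' processing notes. Their versions and roles, the annotation and any between-library scaling are not given in the sources consulted. Each of the authors' files gives FPKM per its header, although it is titled RPKM, in 16795 rows. Rows of the 2 repeated symbols were added up. Without counts no counting error can be given.

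Differences of log2(FPKM + 1) were computed here among genes averaging 1 FPKM or more, and called at an absolute difference of 1 (2-fold). With 1 library per group no test was run. The members, the 14 pathway lists and the markers were chosen with earlier results of these data known. From the TGF-beta response list, 1 gene is not reported here and is left out of its counts. Text names all members, receptors, signal-carrying SMADs and E proteins past the filter, up to 4 genes per list furthest from vehicle at 10 µM, and the 5 genes nearest each of 2 members. PMEPA1, CDH2, TGFBI, ACTA2, HEY1, NOG, SKI, SMURF1, CERS1, HNRNPUL1 and the ligands under 0.5 FPKM were named after their values were seen. Shared 50-base sequences came from the longest coding transcript in GENCODE 29 and promoters from RefSeq (GRCh38.p14). Alternatives were no filter, a filter at 5 FPKM, pseudocounts of 0.1 and 0.5, limits of 1.5-fold and 4-fold, median-ratio, total and quantile scaling, and symbols in several rows left out. Only the steps that take differences, call them and scale the libraries were tested on simulated data. The noise there was set by hand, so that test cannot tell the replicate spread of these libraries. Python 3.11.15, numpy 2.4.6, pandas 2.3.3 and matplotlib 3.10.9 were used.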

Additional observations from a re-analysis of the deposited data

How the results depend on the processing

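No paired analysis was possible because each group has 1 library. None of the 8 members was called 2-fold under the alternatives, except that 2 were at the limit of 1.5-fold for 10 µM against vehicle. Of 240 recomputed member differences, 1 changed sign, TGFB1 between the doses with quantile normalization. Most of the 240 could not change sign. Filters, fold limits and leaving out symbols in several rows did not alter a member's difference, and a pseudocount cannot turn its sign. Only median-ratio, total and quantile scaling could turn a sign, so the count of 240 does not measure stability. Scaling moved the median of all genes most at 10 µM with quantile normalization, by −0.0545. That median was 0.047 as deposited, −0.0064 with median-ratio scaling and −0.0075 with quantile normalization, so its sign turned. With total scaling it was 0.036. The member median between the doses was 0.0498 with median-ratio scaling. Genes called at 5 µM (87) numbered 196 with a pseudocount of 0.1, 532 at 1.5-fold and 5 at 4-fold. At 10 µM (225) they numbered 420 with a pseudocount of 0.1, 137 with the filter at 5 FPKM, 1095 at 1.5-fold and 22 at 4-fold. Between the doses (10) they numbered 41 and 27 with pseudocounts of 0.1 and 0.5, 4 with the filter at 5 FPKM, 98 at 1.5-fold and 0 at 4-fold. The depth is unknown, so differences of low genes such as BAMBI, TGFB2 and BMP6 have no counting error.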
